A study of Mus musculus with 25 samples.

Results

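The miR-29 family was followed in the brain of ageing male mice through its 4 precursor hairpins, mmu-mir-29a, mmu-mir-29b-1, mmu-mir-29b-2 and mmu-mir-29c (below without the prefix for mouse). They were chosen by name and make up 4 of the 1193 precursors in the deposited count table. All 4 were among the 425 precursors abundant enough to be tested. Small RNA had been sequenced from a brain hemisphere of male C57BL/6 mice, a common inbred strain, aged 2, 9, 15, 24 or 30 months, with 5 libraries at each age and 25 in all. The labels give no allele, treatment or diet for any group, so age is the only stated difference. Each title carries an animal number of its own, and the libraries of an age were taken as separate animals. The p-values measure the spread between these libraries.

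MicroRNAs are cut from hairpin precursors by the enzymes Drosha and Dicer, and the mature strand, loaded into an Argonaute protein, pairs with messenger RNAs mainly through its seed, the bases near its 5′ end. The miR-29 family is known for repressing collagens and other genes of the extracellular matrix, the DNA methyltransferases Dnmt3a and Dnmt3b, and pro-apoptotic BH3-only genes. In brain it is known to rise as the tissue matures after birth and to be made by neurons and astrocytes. Target messenger RNAs were not analysed here.

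The mature 3p strands are shown because the bases at which they differ are what allows their reads to be told apart. They are RefSeq sequences of the GRCm38.p6 assembly, written 5′ to 3′, with the seed (bases 2 to 8) in capitals.
mmu-miR-29a-3p: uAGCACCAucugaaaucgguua
mmu-miR-29c-3p: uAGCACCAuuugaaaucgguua
mmu-miR-29b-3p: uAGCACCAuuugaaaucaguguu
The seed AGCACCA was the same in all of them and in no other strand: 3 of the 1679 mature mouse names in the RefSeq table carried it, or 0.179%. Counting from the 5′ end, miR-29a-3p and miR-29c-3p differed by C10U alone and were identical at 21 of 22 bases. The strand of miR-29b-3p is 23 bases long and differed from miR-29a-3p by C10U, G18A, U21G and A22U, and from miR-29c-3p by G18A, U21G and A22U. Its last 6 bases, AGUGUU, ended 2 of the 1679 mature names, or 0.119%, the other being miR-92b-5p. Searched on the mature strand as written, these letters stood anywhere in 12 names, or 0.715%.

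The hairpins mir-29b-1 and mir-29b-2 yield the same 3p strand, so reads of it cannot be told apart by locus. Their 5p strands differ and are shown because only they could separate the loci. The seeds, CUGGUUU and UGGUUUC, differ only in being set 1 base apart along a run of bases that both strands share.
mmu-miR-29b-1-5p: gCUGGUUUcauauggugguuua
mmu-miR-29b-2-5p: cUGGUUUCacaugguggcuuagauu
The deposited rows count both arms of a hairpin together. The mir-29b-1 row held 49.3% ± 0.481 (SD, n = 25) of the reads in the mir-29b rows, between 48.2% and 50.1%, and lay below the mir-29b-2 row in 23 of 25 libraries. How the authors assigned reads that match several hairpins is not given in the sources used here. The mir-29b rows are therefore described as 1 mature miRNA counted at 2 loci, and their shared direction is no second observation.

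The 4 hairpins lie at 2 loci, each with 1 copy of miR-29b. On chromosome 6 of GRCm38, minus strand, mir-29a spans 31062660 to 31062747 and mir-29b-1 spans 31063023 to 31063093, with 275 bases between them. In the GENCODE M21 annotation, 2 bases of mir-29b-1 fall in an exon of Gm27019, a long intergenic non-coding RNA on the same strand. On chromosome 1, plus strand, mir-29b-2 spans 195037040 to 195037120 and mir-29c spans 195037547 to 195037634, with 426 bases between them. Both lie inside an exon of A330023F24Rik, a non-coding transcript on the same strand, and opposite a UTR exon of Cd46, a complement-regulating gene on the minus strand. Whether the authors' counting used strand is not given in the sources used here. Over whole hairpins, mir-29a and mir-29c shared 78.0% of aligned bases and mir-29b-1 and mir-29b-2 shared 73.2%, while neighbours on a chromosome shared 60.4% (mir-29a and mir-29b-1) and 63.2% (mir-29b-2 and mir-29c).

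Libraries held 3.78 to 9.52 M counts (mega-reads). The sequencing lane is written in the column names, and each of the 6 lanes held several ages. Lanes differed along the second principal component (19.9% of the variance), 91.2% of which lay between lanes. The 5 libraries of lane 3, 1 from each age, were taken as those that stood apart, though their own positions along it are not given here. Results are therefore given with and without them. As a check of the tissue label, 16 precursors of neuron-enriched miRNAs (led by mir-128-1) summed to between 76310 and 98276 CPM, the count of reads scaled to a common library size. In contrast, 5 precursors of liver, heart and skeletal muscle miRNAs (led by mir-499) summed to between 13.1 and 21.8 CPM. The neuron list holds copies of some miRNAs, such as mir-9-1, mir-9-2 and mir-9-3, and reads counted in several rows would raise its sum. A hemisphere mixes cell types, and fewer cells of a type cannot be told apart from less RNA per cell.

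The family was abundant and led by mir-29a. Together the 4 precursors held 1.73% ± 0.162 of a library (SD, n = 25), from 1.40% to 2.09%. The level of mir-29a averaged 13688 CPM and ranked 14 among the 425 tested precursors, between let-7f-2 at 14221 CPM and mir-181c at 13685 CPM. The level of mir-29c averaged 2127 CPM (rank 75, between mir-338 and mir-221), that of mir-29b-2 779 CPM (rank 111, between mir-582 and mir-150) and that of mir-29b-1 758 CPM (rank 113, between mir-150 and mir-380). In the family's own reads mir-29a made up 78.9%, mir-29c 12.3% and the mir-29b rows together 8.89%. The last share depends on whether the same reads were counted at both loci. With the mir-29b reads counted once, as the mean of the rows, it was 4.65% ± 0.469 (SD, n = 25), beside 82.5% for mir-29a and 12.8% for mir-29c. Counts of mir-29a were 6.11 to 6.79 times those of mir-29c. Those of mir-29c were only 1.15 to 1.72 times the summed mir-29b rows, with a mean of 1.39, or 2.79 with the mir-29b reads counted once. The order mir-29a, mir-29c, mir-29b was seen in every library, whereas the mir-29b rows lay close, mir-29b-1 being lower in 23 of 25. This is an order of reads, since adapter ligation favours some sequences over others. Between the lowest and the highest library each precursor varied by only 1.44 to 1.52-fold, and even the smallest count of a member was 2814 reads.

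The clearest change was in miR-29b, which was about 1.3-fold higher at 9 than at 2 months. At 2 months the mir-29b-1 libraries held 595, 571, 615, 756 and 632 CPM. At 9 months they held 827, 836, 831, 771 and 809 CPM. Every 9-month library lay above every 2-month library, the nearest being the fourth library of 2 months, which was well above the others of its age. The mir-29b-2 row behaved alike, with 610.4, 588, 638, 771 and 680.0 CPM at 2 months. Its 9-month libraries held 849.9, 868, 853, 785 and 835 CPM, again without overlap. Means rose from 634 ± 72.2 to 815 ± 26.3 CPM for mir-29b-1 and from 657 ± 72.2 to 838 ± 31.9 CPM for mir-29b-2 (SD, n = 5).

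The edgeR quasi-likelihood test with Benjamini-Hochberg adjustment over the 425 precursors gave a log2 fold change of 0.36 ± 0.06 (SE) for mir-29b-1 and 0.35 ± 0.06 for mir-29b-2 at 9 against 2 months, each with an adjusted p of 0.00124. Few precursors rose over this interval: 33 of 425, or 7.76%, passed the threshold of 0.05 on the adjusted p, with 8 of them higher (1.88%) and 25 lower (5.88%). In 6 precursors, or 1.41%, every 9-month library was above every 2-month library. The call of the mir-29b rows held under each of the other scalings, filters and models tried, where the log2 fold change lay between 0.32 and 0.38 and the adjusted p between 1.59e-05 and 0.0442. It also held in all 25 refits that each left out 1 library. Within the 4 lanes that held both ages, mir-29b-1 was higher at 9 months in 4 of 4, by 0.10 to 0.54 on the log2 scale, the smallest difference being in lane 6, which held the high 2-month library.

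Between 15 and 30 months miR-29b fell, and at 30 months its mean (726 ± 56.5 CPM for mir-29b-1, SD, n = 5) was below those at 9 and 15 months but above that at 2 months. The mir-29b-1 libraries held 869, 836, 807, 833 and 787 CPM at 15 months. They held 741, 818, 753, 813 and 831 CPM at 24 months. They held 775, 719, 739, 633 and 764 CPM at 30 months. The 15 and 24-month libraries overlapped, as did those of 24 and 30 months, but every 30-month library lay below every 15-month library. The mir-29b-2 row lay between 783 and 884 CPM at 15 months, between 747 and 849 CPM at 24 months and between 666 and 776 CPM at 30 months, so that its 30-month libraries lay below all those of 9 and of 15 months. The 9 and 30-month libraries of mir-29b-1 overlapped in 1 of 25 pairs.

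The comparisons of 30 with 15 and with 9 months were added after these levels had been seen. At 30 against 15 months the edgeR test gave a log2 fold change of -0.19 ± 0.06 for mir-29b-1 (adjusted p 0.0482) and -0.20 ± 0.06 for mir-29b-2 (adjusted p 0.0326). It called 15.3% of the 425 precursors, with 5.18% lower, and 5.18% were lower without overlap of libraries. At 30 against 9 months the log2 fold change was -0.17 ± 0.06 for mir-29b-1 (adjusted p 0.0636), which did not pass, and -0.18 ± 0.06 for mir-29b-2 (adjusted p 0.0398), which did. That comparison called 22.6% of precursors, with 9.41% lower, and 5.65% were lower without overlap. Within the 4 lanes that held 15 and 30 months, both rows were lower at 30 months in 4 of 4. With lane as a covariate the adjusted p at 30 against 15 months was 0.0441 and 0.0325, and without the lane 3 libraries 0.0382 and 0.0325. These calls lay near the threshold. At 30 against 15 months that of mir-29b-1 ended in 6 of 25 refits that left out 1 library (library 1, 2 or 4 of 15 months, or 2, 3 or 4 of 30 months). That of mir-29b-2 ended in 4, those without library 2 or 4 of either age. At 30 against 9 months its call ended in 4, without library 2 or 3 of 9 months or 2 or 4 of 30 months. There mir-29b-1, which had not passed with all libraries, did pass in 13 of 25 such refits. Neither mir-29a nor mir-29c passed in these comparisons, with log2 fold changes of -0.01 ± 0.07 and -0.02 ± 0.07 at 30 against 15 months and 0.08 ± 0.07 and 0.05 ± 0.07 at 30 against 9 months.

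After 9 months no pair of adjacent ages passed the edgeR test. The log2 fold change of mir-29b-1 was 0.02 ± 0.06 at 15 against 9 months (adjusted p 0.998), -0.06 ± 0.06 at 24 against 15 months (adjusted p 0.712) and -0.12 ± 0.06 at 30 against 24 months (adjusted p 0.236). That of mir-29b-2 at 30 against 24 months was -0.13 ± 0.06 with an adjusted p of 0.220. In the 4 lanes that held both ages, the mir-29b rows were lower at 30 than at 24 months in 4 of 4. In these 3 comparisons 0%, 0.235% and 8.71% of the 425 precursors passed with edgeR. No member of the family did, with edgeR or DESeq2, and only mir-29b-2 at 30 against 24 months had an unadjusted p under 0.05 (0.0471). At 15 against 9 months, where edgeR called 0 precursors, 27 had an unadjusted p under 0.05 and DESeq2 called 2.

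**Figure D1:**
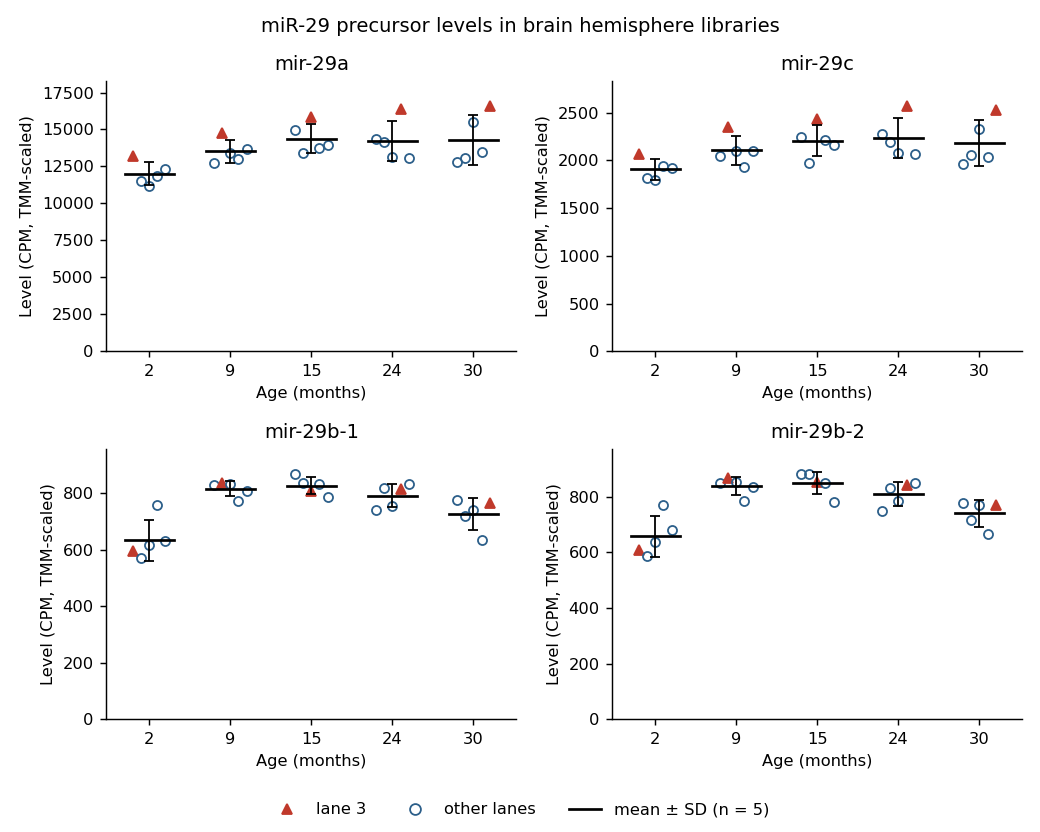
Level of each miR-29 precursor in CPM (vertical axes, from 0) by age in months (horizontal axes). Each point is a library, red triangles are the libraries of lane 3, and black lines show the mean with the SD over 5 libraries. The mir-29b panels step up between 2 and 9 months with no overlap, and the lane 3 library is the highest of its age in every group of mir-29a and mir-29c.

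The more abundant mir-29a was also lowest on average at 2 months, but its ages overlapped. Its 2-month libraries held 13207, 11487, 11182, 11832 and 12346 CPM. Its 9-month libraries held 12739, 14785, 13433, 13015 and 13650.4 CPM. These ages overlapped only through the first 2-month library, from lane 3, which exceeded 2 of the 9-month libraries. At 15 months mir-29a stood at 14991, 13415, 15826, 13753 and 13934 CPM. At 24 months it stood at 14368, 14141, 13139.6, 16417 and 13101 CPM. At 30 months it stood at 12776, 13082, 15507, 13458 and 16616 CPM, the widest spread of the 5 ages. The mean went from 12011 ± 796 CPM at 2 months to 13524 ± 789 at 9, 14384 ± 999 at 15, 14233 ± 1348 at 24 and 14288 ± 1683 CPM at 30 months (SD, n = 5).

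The same course, at a lower level, was seen for mir-29c. At 2 months it stood at 2068, 1812, 1792, 1936 and 1916 CPM. At 9 months it stood at 2050.0, 2352, 2101, 1933 and 2098 CPM. Again the ages overlapped, the lane 3 library of 2 months lying above 2 of the 9-month libraries and the fourth library of 2 months above 1. At 15 months the libraries held 2242, 1975, 2431, 2215 and 2162 CPM. At 24 months they held 2275, 2188, 2078, 2573 and 2064 CPM, and at 30 months 1959, 2057, 2329, 2038 and 2522 CPM. Means were 1905 ± 110.4 CPM at 2 months, 2107 ± 153 at 9, 2205 ± 164 at 15, 2236 ± 208 at 24 and 2181 ± 236 CPM at 30 months (SD, n = 5).

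At 9 against 2 months neither mir-29a nor mir-29c passed the edgeR test, with log2 fold changes of 0.17 ± 0.07 (adjusted p 0.170) and 0.15 ± 0.07 (adjusted p 0.234). Lane moved with these values. At each of the 5 ages the lane 3 library was above the age mean for mir-29a and mir-29c, and lane 3 exceeded the other lanes by 0.21 on the log2 scale for each. For mir-29b-1 and mir-29b-2 that difference was 0.01 and 0.02. Differences between lanes made up 46.4% and 50.6% of the variance of mir-29a and mir-29c, against 1.01% and 3.33% for the mir-29b rows, and age for 45.4% and 37.9%, against 72.6% and 72.3%.

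With lane as a covariate in the edgeR fit, all 4 members rose at 9 against 2 months. The log2 fold change of mir-29a was then 0.20 ± 0.04 (adjusted p 0.00183) and that of mir-29c 0.17 ± 0.04 (adjusted p 0.00674). Without the lane 3 libraries, mir-29a gave 0.18 ± 0.05 (adjusted p 0.0457) and mir-29c 0.14 ± 0.05 (adjusted p 0.103). Within lanes, mir-29a was higher at 9 months in 4 of 4, by 0.16 to 0.23 on the log2 scale, and mir-29c in 4 of 4, by 0.11 to 0.21. Both were thus higher at 9 months in each lane that held both ages. Whether that difference passed changed with how lane was treated, and for mir-29c it passed only with lane as a covariate among these 3 fits.

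Between the youngest and the oldest mice all 4 precursors were higher, by 1.13 to 1.19-fold. The log2 fold change at 30 against 2 months was 0.25 ± 0.07 for mir-29a (adjusted p 0.0105), 0.20 ± 0.06 for mir-29b-1 (adjusted p 0.0180), 0.17 ± 0.06 for mir-29b-2 (adjusted p 0.0336) and 0.20 ± 0.07 for mir-29c (adjusted p 0.0374), by the edgeR test. This comparison called 157 of the 425 precursors, or 36.9%, with 81 higher (19.1%) and 76 lower (17.9%). The median log2 fold change of the members was 0.20, beside 0.05 over all tested. With the mir-29b rows summed to 1 row it was 0.21 over 3 rows, beside 0.06. Libraries of the 2 ages overlapped for every member, where 44 precursors, or 10.4%, were higher without overlap. Of 25 pairs of 1 old and 1 young library, the older was higher in 23 for mir-29a and in 22 for each of the others.

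These calls were less stable than that of miR-29b at 9 months. Depending on the scaling, 4 members passed with edgeR's trimmed mean (TMM), 2 with relative log expression (RLE), 1 with library totals and 0 with the upper quartile, whose split over all precursors was 50 higher and 91 lower. The direction was upward for all 4 members under every scaling. Leaving out single libraries ended the call of mir-29a in 4 of 25 refits, those without library 2 or 3 of 2 months or library 3 or 5 of 30 months. It ended that of mir-29c in 14, of mir-29b-1 in 16 and of mir-29b-2 in 21. With lane as a covariate all 4 passed, with mir-29a at 0.25 ± 0.04 (adjusted p 1.91e-05) and mir-29c at 0.20 ± 0.04 (adjusted p 2.70e-04). Without lane 3, mir-29a (0.20 ± 0.05, adjusted p 0.00786) and mir-29c (0.14 ± 0.05, adjusted p 0.0426) passed, while mir-29b-1 (0.13 ± 0.08, adjusted p 0.214) and mir-29b-2 (0.10 ± 0.07, adjusted p 0.296) did not. Within the 4 lanes holding both ages, mir-29a and mir-29c were higher at 30 months in 4 of 4 and the mir-29b rows in 3 of 4, the exception being lane 6.

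**Figure D2:**
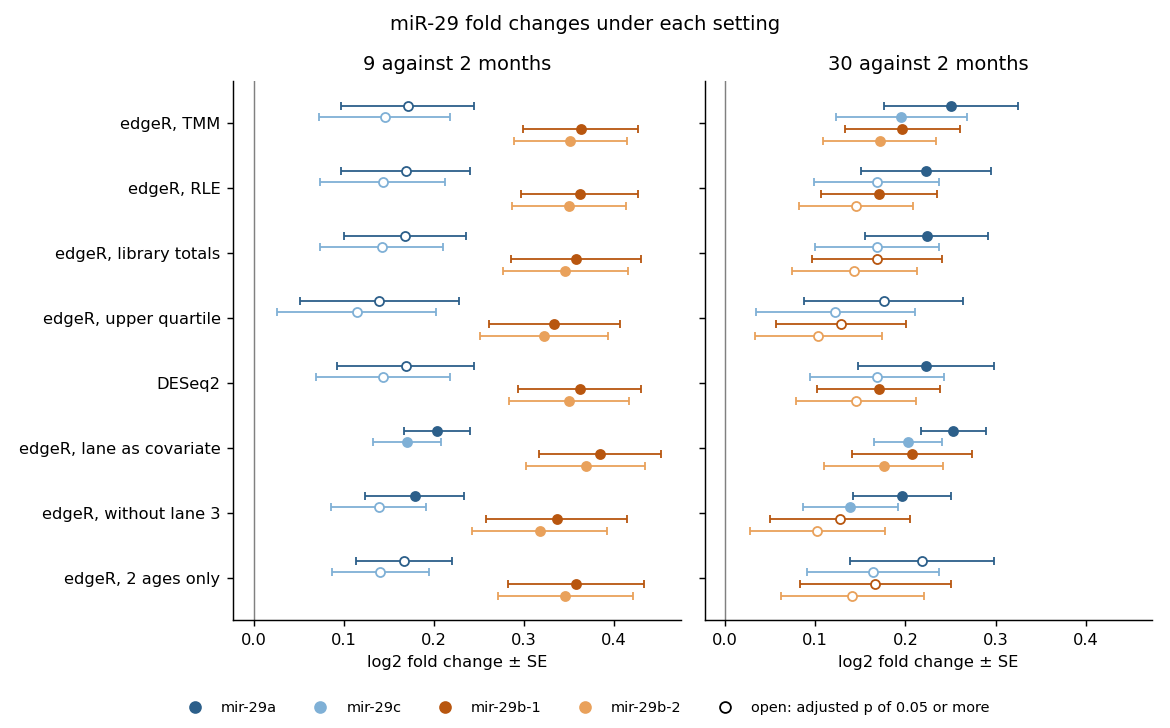
Log2 fold change with its SE (horizontal axes) of each miR-29 precursor at 9 against 2 months (left) and 30 against 2 months (right) under 8 settings (rows). Filled points passed an adjusted p of 0.05 and open points did not. The mir-29b points at 9 months are filled in every row, whereas at 30 months the number of filled points ranges from 0 to 4.

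Over all 5 ages, mir-29b-1 (adjusted p 2.36e-04), mir-29b-2 (adjusted p 2.45e-04) and mir-29a (adjusted p 0.0320) differed by the edgeR test for any difference, which called 32.7% of the 425 precursors. That of mir-29c gave an adjusted p of 0.0798. It passed with lane as a covariate (adjusted p 3.79e-04), without the lane 3 libraries (0.0229) and with the mir-29b rows summed (0.0490), and mir-29a did not pass with upper-quartile scaling (0.191). Leaving out 1 library ended the call of mir-29a in 8 of 25 refits and brought mir-29c past the threshold in 8. A straight line on age rose for mir-29a, by 0.09 ± 0.03 on the log2 scale per 12 months (adjusted p 0.0161), and for mir-29c, by 0.08 ± 0.03 (adjusted p 0.0349), where 35.5% of precursors passed and 19.5% rose. For mir-29b-1 and mir-29b-2 the slopes were 0.05 ± 0.04 (adjusted p 0.324) and 0.04 ± 0.04 (adjusted p 0.423). Without lane 3 the slope of mir-29a was 0.07 ± 0.03 (adjusted p 0.0420) and that of mir-29c 0.06 ± 0.02 (adjusted p 0.0744).

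The ages of mir-29b-1 and mir-29b-2 departed from a line, each with an adjusted p of 0.00127 by the edgeR test, which called 7.06% of precursors. The adjusted p for mir-29a was 0.377 and for mir-29c 0.457. With lane as a covariate the departure passed for all 4, with adjusted p-values of 0.00688 for mir-29a, 0.0251 for mir-29c and 0.00212 for each mir-29b row. Without the lane 3 libraries it was 0.0892 for mir-29a, 0.159 for mir-29c and 0.0124 for each mir-29b row.

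Whether the members changed alike was tested on their ratios within a library, which do not depend on how libraries are scaled. The ratio of mir-29a to mir-29c counts was nearly constant. It was 6.30 ± 0.131 at 2 months, 6.43 ± 0.204 at 9, 6.53 ± 0.227 at 15, 6.37 ± 0.0596 at 24 and 6.55 ± 0.115 at 30 months (SD, n = 5). Between 30 and 2 months its log2 value differed by 0.05, and the 30-month library was higher in 23 of 25 pairs and in 4 of 4 lanes. The exact two-sided permutation test gave p = 0.0238, and 0.143 after Benjamini-Hochberg adjustment over the 6 pairs of members, so this difference did not pass.

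The ratio of mir-29a to the summed mir-29b rows varied more. Its size depends on whether miR-29b reads were counted at both loci, the mean over the 25 libraries being 17.9 with them counted once, but its course over the ages does not. Libraries stood at 10.96, 9.92, 8.93, 7.75 and 9.41 at 2 months. They stood at 7.60, 8.68, 7.98, 8.36 and 8.30 at 9 months and at 8.24, 9.11, 10.3, 10.4 and 10.8 at 30 months. The mean was 9.39 ± 1.19 at 2 months, lowest at 9 months with 8.18 ± 0.411, and 9.76 ± 1.06 at 30 months (SD, n = 5). After these levels had been seen, the 6 ratios were also compared at 9 against 2 months. The log2 ratio of mir-29b-2 to mir-29c was higher at 9 months by 0.21, in 24 of 25 pairs (exact permutation p = 0.0159, adjusted p 0.0714). That of mir-29b-1 to mir-29c was higher by 0.22, in 23 of 25 pairs (exact permutation p = 0.0238, adjusted p 0.0714). That of mir-29a to mir-29b-1 was lower by a log2 difference of -0.20 (exact permutation p = 0.0714, adjusted p 0.107). None of the 6 passed, and without the lane 3 libraries the smallest adjusted exact permutation p was 0.171. There the log2 ratio of mir-29b-2 to mir-29c was higher at 9 months by 0.19, in all 16 pairs (exact permutation p = 0.0286). With 8 libraries that is the smallest p this test can give, so 1 ratio alone could not pass after adjustment over the 6. Without the fourth library of 2 months, whose mir-29b rows were high, 4 of the 6 passed with a smallest adjusted exact permutation p of 0.0119. Over all 5 ages, a permutation test of any difference, added at the same time, gave an adjusted p of 0.757 for mir-29b-1 to mir-29b-2 and 0.144 for each of the other pairs. For a slope on age the smallest adjusted permutation p was 0.478. Thus in the fit without lane mir-29b passed at 9 against 2 months and mir-29a and mir-29c did not, while with lane as a covariate all 4 passed. A difference between the members was not established by the test of that difference.

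**Figure D3:**
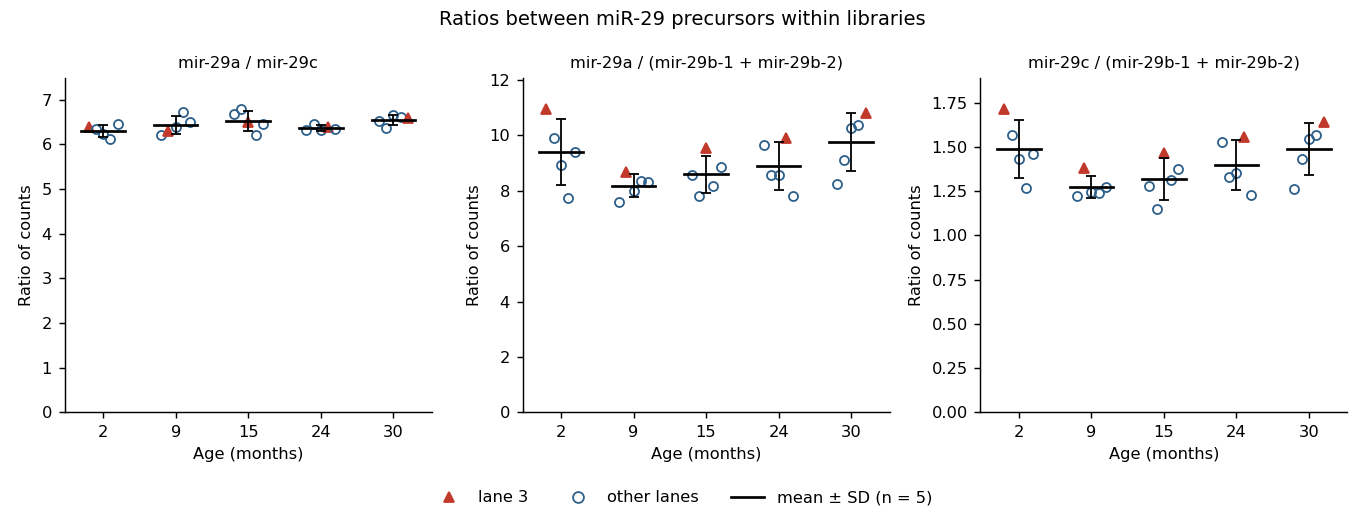
Ratio of counts within each library (vertical axes, from 0) by age in months, for mir-29a over mir-29c, mir-29a over the summed mir-29b rows and mir-29c over the summed mir-29b rows. Points are libraries, red triangles are lane 3, and black lines give the mean with the SD over 5 libraries. The first ratio stays between 6.11 and 6.79, and the other two are lowest on average at 9 months.

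From library to library mir-29a followed mir-29c, which lies on another chromosome, more closely than it followed its neighbour mir-29b-1. Across the 25 libraries the log2(CPM + 0.5) levels of mir-29a and mir-29c, on different chromosomes, had Pearson's r 0.965 and Spearman's rho 0.949. For mir-29b-1 and mir-29b-2, also on different chromosomes, r was 0.987 and rho 0.955, a value that reads of their common 3p strand counted in both rows would give by themselves and that is no evidence on the loci. Each of these had a permutation p of 1e-05, the smallest that 100000 resamples can give, and an adjusted p of 3e-05 over the 6 pairs. The correlation was lower between neighbours on a chromosome, although the difference between correlations was not tested: r was 0.517 and rho 0.408 for mir-29a with mir-29b-1 (permutation p 0.00871 and 0.0440, adjusted 0.00871 and 0.0440), and r was 0.517 and rho 0.448 for mir-29b-2 with mir-29c (permutation p 0.00749 and 0.0250, adjusted 0.00871 and 0.0416). The pairs mir-29a with mir-29b-2 and mir-29b-1 with mir-29c gave r 0.523 and 0.518 and rho 0.426 and 0.435 (adjusted permutation p 0.00871 for each r and 0.0416 for each rho).

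The libraries share ages and lanes, and both entered these values. After the age means were removed, r was 0.955 for mir-29a with mir-29c and 0.956 for the mir-29b rows, but 0.136 for mir-29a with mir-29b-1 and 0.238 for mir-29b-2 with mir-29c. Without the lane 3 libraries, r over the other 20 was 0.937, 0.986, 0.582 and 0.579 in the same order. There rho was 0.928, 0.965, 0.426 and 0.451. For the last 2 pairs r passed (adjusted permutation p 0.00777 for each), but rho did not (adjusted permutation p 0.072 and 0.0709). Of all 25 libraries without the 2 farthest from the median of the first member, r was 0.950, 0.978, 0.557 and 0.454. Because mir-29a and mir-29c strands differ by 1 base and the treatment of mismatched or repeatedly matching reads is not given in the sources used here, the part of shared read assignment in these correlations was not tested. Upper-quartile scaling raised the within-age r of mir-29a with mir-29b-1 to 0.383 and of mir-29b-2 with mir-29c to 0.472.

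**Figure D4:**
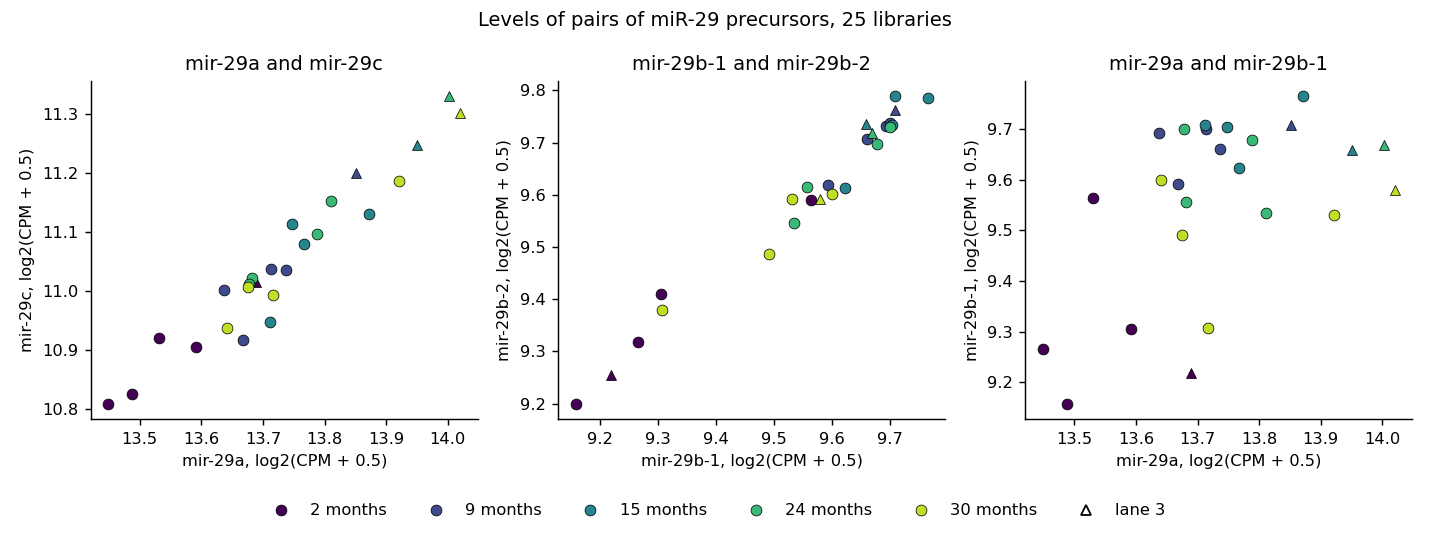
Level of one miR-29 precursor against another, both as log2(CPM + 0.5), with 1 point per library coloured by age, and triangles for lane 3. Points follow a line for mir-29a with mir-29c (r 0.965) and for mir-29b-1 with mir-29b-2 (r 0.987), and scatter for mir-29a with its chromosomal neighbour mir-29b-1 (r 0.517).

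Outside the family, 321 tested precursors that averaged 10 CPM or more were ranked by likeness to each member over the 25 libraries. The 3 nearest to mir-29a were mir-16-1 (r 0.888), mir-16-2 (r 0.881) and mir-27b (r 0.876), and the same 3 were nearest to mir-29c (r 0.877, 0.876 and 0.853). By name mir-16-1 and mir-16-2 are copies of the same miRNA (means 4683 and 4650 CPM), so they may not be separate matches. Lane moved with these levels too. Without lane 3 the 3 nearest to mir-29a were mir-203 (r 0.839), mir-27b (0.825) and mir-16-1 (0.790), and those nearest to mir-29c were mir-26b (0.802), mir-203 (0.766) and mir-16-1 (0.744). On deviations from the age means, mir-16-1, mir-27b and mir-16-2 were nearest to mir-29a (r 0.886 to 0.900), and mir-16-1, mir-16-2 and mir-130a to mir-29c (r 0.866 to 0.875). A different group stood nearest to miR-29b, led by mir-324 (r 0.799 with mir-29b-1 and 0.816 with mir-29b-2) and mir-664 (r 0.747 and 0.739). Next were mir-34a for mir-29b-1 (r 0.681, rho 0.632) and mir-193a for mir-29b-2 (r 0.683, but rho only 0.351). Without lane 3, mir-324 and mir-664 still led for both rows, followed by mir-23a (r 0.713 and 0.725). Like miR-29b, mir-324 rose at 9 against 2 months (log2 fold change 0.25, adjusted p 0.0488 by the edgeR test). The ranking took in both ages, so this shared rise is no separate observation. It was not particular to this group, since mir-203, named above beside mir-29a and mir-29c, rose as well (log2 fold change 0.30, adjusted p 0.0212 by the edgeR test). On deviations from the age means the nearest to mir-29b-1 were mir-345, mir-154 and mir-129-2 (r 0.679 to 0.712), and the same 3 precursors were nearest to mir-29b-2.

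Precursors associated with particular cell types were read beside these changes. Copies of the same miRNA, such as mir-128-1 and mir-128-2, were counted as separate rows, so their calls may not be separate observations. Over all 425 tested precursors, 1.88% rose and 5.88% fell at 9 against 2 months. At 30 against 2 months 19.1% rose and 17.9% fell. Of the 5 astrocyte-associated precursors, none passed at 9 against 2 months (2 had an unadjusted p under 0.05, and DESeq2 called 0) and 1 did at 30 against 2 months: mir-26b rose by 0.24 ± 0.08 on the log2 scale (adjusted p 0.0143 by the edgeR test). The others stood at 0.14 ± 0.07 (mir-26a-1), 0.13 ± 0.07 (mir-26a-2), 0.09 ± 0.06 (mir-23b) and 0.03 ± 0.06 (mir-23a). The list's summed level was 47948 to 59935 CPM at 2 months, 51709 to 58535 CPM at 9 months and 52308 to 66319 CPM at 30 months. Of the 16 neuron-enriched precursors, 2 fell at 9 against 2 months and 6 at 30 against 2 months, none rose, and the list's median log2 fold change was 0.01 and 0.05. The 2 were the copies mir-128-1 and mir-128-2. The 6 were these, the copies mir-138-1 and mir-138-2, mir-137 and mir-153. The largest by level, mir-128-1, fell by 0.33 ± 0.09 at 9 against 2 months (adjusted p 0.0393 by the edgeR test). Over the list the log2 fold changes there ran from -0.33 to 0.14, the highest being mir-124-1 (0.14 ± 0.05, adjusted p 0.0869). With edgeR 7 of the 16 had an unadjusted p under 0.05.

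At 30 against 2 months, where 19.1% of the 425 precursors rose and 17.9% fell, all 3 oligodendrocyte precursors rose, with a median of 0.71. They were mir-338 and the copies mir-219a-1 and mir-219a-2. Of the 6 microglia and leukocyte precursors 4 rose and 1, mir-150, fell. In neither list did any pass at 9 against 2 months, the interval in which miR-29b rose: with edgeR 1 in each had an unadjusted p under 0.05, and DESeq2 called 0. None of the 3 endothelial and mural or the 4 erythroid precursors passed in either comparison with edgeR or DESeq2. With edgeR, 1 endothelial and mural precursor at 9 against 2 months and 1 erythroid precursor at 30 against 2 months had an unadjusted p under 0.05. Of the 6 tested choroid plexus and ciliated-cell precursors, 3 rose at 30 against 2 months (2 with DESeq2). None passed at 9 against 2 months, adjusted or unadjusted, with edgeR, and DESeq2 called 0. The erythroid list's summed level ranged from 2068 to 3493 CPM at 2 months and from 2640.0 to 7814 CPM at 9 months, and its median log2 fold change between them was 0.43. What part any of these cell types had in the miR-29 levels was not tested.

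Other abundant families with several hairpins were read beside the miR-29 values. At 9 against 2 months 1.88% of the 425 precursors rose and 5.88% fell. None of the 13 tested precursors of the let-7 family with mir-98, known for rising as cells differentiate, passed at 9 against 2 months, where their median log2 fold change was 0.09 and none had an unadjusted p under 0.05 with edgeR. None of the 6 miR-30 precursors passed (median 0.00, 1 with an unadjusted p under 0.05), and 1 of the 6 miR-181 precursors fell (median -0.08). The miR-29 median was 0.26, beside 0.00 over all tested, but it takes both mir-29b rows, and with these summed to 1 row it was 0.19 over 3 rows, beside 0.02. At 30 against 24 months, where 26 of the 425 precursors rose and 11 fell (8.71% in all), the order differed. There 6 of 13 let-7 precursors and 2 of 6 miR-181 precursors rose, and 1 of 6 miR-30 precursors fell. The miR-181 calls were the copies mir-181b-1 and mir-181b-2, and the let-7 calls took in the copies let-7f-1 and let-7f-2. None of the 4 miR-29 precursors passed, with a median of -0.08, or -0.02 over 3 rows with the mir-29b rows summed. DESeq2 called the same number in each of these families in both comparisons. Copies of the same miRNA were summed for miR-29b only, so the counts and medians of the other families may hold the same reads more than once. Differences between families were not tested.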

How the data were processed

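The authors deposited whole-number read counts per miRNA precursor, both arms of a hairpin together, in 1 table of 25 libraries. The library kit was TruSeq small RNA, per the labels' protocols, which carries no molecular identifiers, so reads are not independent molecules. Tools listed in the submitters' processing notes are SAMtools 1.3.1-9, Trimmomatic 0.36 and bcl2fastq 1.8.4. How reads were aligned, to which build, with what use of strand and with what treatment of several matches was not given in the sources used here.

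From these counts, edgeR 4.0.16 (R 4.3.3) kept 425 precursors by filterByExpr and set aside 768. Libraries were scaled by TMM (factors 0.952 to 1.04), and levels are CPM with these factors. A single quasi-likelihood fit over all libraries, with 1 mean for each age, gave every comparison (those of 30 with 9 and 15 months were added after the levels were seen), and another with age in months gave the slope. Benjamini-Hochberg adjustment ran over the 425 precursors, at a threshold of 0.05. Fits were tested on simulated data first. The SE of a log2 fold change is its size over the square root of F.

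Ratios between members were compared by exact permutation over 252 divisions of 10 libraries. Correlations and ratio slopes used 100000 permutations, with ranks and the Benjamini-Hochberg adjustment from scipy 1.17.1. Alternatives were RLE, upper-quartile and library-total scaling, no filter, a filter of at least 10 CPM in 5 libraries, DESeq2 1.42.0, lane as a covariate, leaving out lane 3, the mir-29b rows summed, only the 2 ages compared, and leaving out each library. Counts of replicate pairs differed beyond sampling noise in all 50 pairs (chi-square per degree of freedom 22.1 to 343). Named precursors were the 4 members, the 3 most alike to each, their neighbours in level, the miR-26 and miR-23 precursors and the most abundant of a list. The members and lists were chosen with earlier results of these data known. Other precursors named beside a list were chosen after their values were seen. Positions are 1-based, from RefSeq GRCm38.p6 and GENCODE M21, matched by name for 4 of 4.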

Additional observations from a re-analysis of the deposited data

How the results depend on the processing

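The rise of both mir-29b rows at 9 against 2 months and their departure from a line passed under every alternative run, including all 25 refits without 1 library. The number of members past the threshold moved in other results. At 30 against 2 months it was 4, and 2 with RLE, 0 with the upper quartile, 1 with library totals, 2 with the filter of at least 10 CPM, 2 with DESeq2, 2 without lane 3, 0 with only the 2 ages, and 0 to 4 when 1 library was left out. For the slope it was 2, and 1 with RLE, 0 with the upper quartile, 1 without a filter, 1 with the stricter filter, 1 with DESeq2, 1 without lane 3, and 0 to 2 when 1 library was left out. With lane as a covariate it became 4 at 9 against 2 months and 4 for the departure from a line. With the mir-29b rows summed it became 1 of 3 rows in each of these. For any difference among the ages, mir-29c passed with lane as a covariate (adjusted p 3.79e-04), without lane 3 (0.0229) and with the mir-29b rows summed (0.0490), and mir-29a did not pass with the upper quartile (0.191). At 30 against 15 months, the 2 members that passed, both mir-29b, became 1 with the upper quartile, 1 with library totals, 1 without a filter, 1 with the mir-29b rows summed, 1 with only the 2 ages, and 0 to 2 when 1 library was left out. At 30 against 9 months the 1 became 2 with RLE, 2 with the stricter filter, 2 with DESeq2, 2 with only the 2 ages, 0 without a filter, and 0 to 2 when 1 library was left out. Of the 6 ratios, 0 passed in any comparison with all libraries. When 1 library was left out this number ranged from 0 to 4 at 9 against 2 months, from 0 to 1 at 30 against 24 months and from 0 to 4 for any difference among the ages. It reached 4 in the last without the fourth library of 2 months or the first of 30 months, and 1 at 30 against 24 months without the second library of 30 months. Unless fewer libraries or rows explain it by construction, the cause was not tested.

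Signs changed only for values near 0 that did not pass. The log2 fold change of mir-29a at 24 against 15 months was 0.0360 with the upper quartile and 0.00979 with library totals, and -0.0729 to 0.0200 without 1 library. That of mir-29c was -4.87e-04 with lane as a covariate and -0.00444 with the mir-29b rows summed, and -0.0370 to 0.0531 without 1 library. At 30 against 24 months mir-29a was at -0.00671 with RLE, -0.0710 with the upper quartile, -0.0387 with library totals, -0.0165 without a filter, -0.0142 with the stricter filter, -0.00668 with DESeq2, -0.0273 without lane 3 and -0.0788 to 0.0607 without 1 library. There mir-29c ranged from -0.117 to 0.0189 without 1 library. Likewise at 30 against 9 months mir-29a ranged from -0.0111 to 0.0856 and mir-29c from -0.0373 to 0.0626, and at 30 against 15 months mir-29a from -0.0952 to 0.00114.

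Over all precursors, the 33 calls at 9 against 2 months became 15 without a filter, 50 with lane as a covariate, 16 with the mir-29b rows summed and 9 with only the 2 ages. The 37 at 30 against 24 months became 20 without a filter and 19 with only the 2 ages. The 30 departures from a line became 19 with the upper quartile, 19 without a filter and 53 with lane as a covariate. No precursor passed at 15 against 9 months with edgeR, beside 1 with library totals and 2 with DESeq2. The 1 call at 24 against 15 months became 0 with the upper quartile, without a filter or without lane 3, and 2 with DESeq2 or lane as a covariate. Libraries of different ages could not be paired by replicate, because the labels give no replicate number that ages share. The term that ages do share is lane, which was used as a covariate and for comparisons within lanes.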
